A study of Mus musculus with 18 samples.

Results

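Livers of female mice fed pentachloronitrobenzene (PCNB, a chlorinated nitroaromatic used as a soil fungicide) were set against livers of mice on control feed. The comparison takes 6 of the 18 expression arrays of the series, chosen by their sample titles: 3 arrays of PCNB-fed mice and 3 of feed controls, each hybridized with liver RNA of 1 animal. All mice were female B6C3F1 hybrids, were 5 weeks old at the start, received their diet or gavage for 13 weeks and were 18 weeks old at sacrifice. PCNB was given in the diet at 8187 ppm on 7 days per week to animals 16, 18 and 20, and the labels class it as negative for liver tumours. The feed controls, animals 27, 28 and 29, ate rodent chow without a test chemical. The 12 other arrays hold 3 animals each of 1,5-naphthalenediamine (2000 ppm in feed, labelled positive), N-(1-naphthyl)ethylenediamine dihydrochloride (2000 ppm in feed, labelled negative), 2,3-benzofuran (240 mg/kg by gavage on 5 days per week, labelled positive) and its corn oil gavage control. Each chemical was given at 1 dose and sampled at 1 time, so no dose or time course can be read.

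Interferons bind cell surface receptors and activate transcription factors such as STAT2 and IRF9, which bind the interferon-stimulated response element and turn on a battery of antiviral genes. Foreign chemicals reach the liver's own sensors: the nuclear receptors CAR and PXR drive cytochromes P450 of the Cyp2b, Cyp2c and Cyp3a families, the aryl hydrocarbon receptor drives Cyp1a genes, and NRF2 drives enzymes of glutathione and quinone metabolism through the antioxidant response element. SREBP2 drives the enzymes that make cholesterol when sterols in the cell run low.

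In total 12169 genes were tested, each through 1 probe set, with limma and a Benjamini-Hochberg adjusted p threshold of 0.05. PCNB livers had 1778 genes called higher and 471 called lower than feed control livers, which is 14.6% and 3.87% of those tested (18.5% in either direction). Of all tested genes 38.2% had 3 PCNB arrays that did not overlap the 3 feed control arrays, and 2130 of the called genes were among them. This split depends on the scale. The 3 PCNB arrays had an upper quartile of 6.35 to 6.39 log2 signal, against 6.10 to 6.24 on the feed control arrays, and the median gene was 0.15 higher in PCNB livers. Below a signal of 5 the median change was -0.10, and between 7 and 8 it was 0.24. After quantile normalization 367 genes were called higher and 526 lower (3.02% and 4.32%), and with each array centred on its median gene the counts were 312 and 1627 (2.56% and 13.4%). All 367 of those higher calls and 354 of the 526 lower ones were also calls on the deposited scale. Arrays of the same group correlated at 0.993 to 0.995 for PCNB and 0.990 to 0.993 for feed controls, against 0.983 to 0.992 between the groups. Left out one at a time, feed control 29, PCNB animal 16 and PCNB animal 18 brought the calls down to 656, 660 and 881. Changes below are log2 differences, PCNB minus feed control, less the median change, with their standard errors. The adjusted p tests the deposited change before that subtraction. The p-values rest on the spread between single animals within all 6 groups of 3, pooled over the 18 arrays. They do not rest on the 6 compared animals alone, with which 400 genes were called (317 higher and 83 lower).

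Interferon response genes were higher in PCNB livers, with the highest median change of the 48 gene lists examined. Of 29 tested members of the interferon list, 23 were called higher and none lower, against 14.6% of all genes called higher. After quantile normalization and after centring 20 were called higher (against 3.02% and 2.56% of all genes). The median member stood 0.87 above the median gene, and 27 of the 29 had all 3 PCNB arrays above all 3 feed controls, against 29.2% of all genes. Leaving out any 1 of the 6 arrays left 20 to 26 called higher.

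For 5 members the promoter stretch is shown, because each holds the interferon-stimulated response element. The sequences are from RefSeq on the mouse build GRCm38.p6, 60 bases each, read 5′ to 3′ on the gene's strand, and the capitals mark the element as GAAA, any 2 bases and GAAA again, or its reverse complement TTTC, any 2 bases and TTTC. Both strands were searched over 250 bases before to 50 bases after each start.
Ifit1, chr19:34640769-34640828, plus strand: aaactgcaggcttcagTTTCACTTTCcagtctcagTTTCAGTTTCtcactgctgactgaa
Ifit3, chr19:34583365-34583424, plus strand: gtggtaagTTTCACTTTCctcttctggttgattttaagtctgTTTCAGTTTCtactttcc
Gbp3, chr3:142559977-142560036, plus strand: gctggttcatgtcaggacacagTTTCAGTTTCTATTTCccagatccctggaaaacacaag
Oas1a, chr5:120907526-120907585, minus strand: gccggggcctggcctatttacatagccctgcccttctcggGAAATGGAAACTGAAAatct
Rsad2, chr12:26456538-26456597, minus strand: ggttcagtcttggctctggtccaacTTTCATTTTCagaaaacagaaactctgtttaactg
The pair in Ifit1 begin 104 and 85 bases before the start, and those in Ifit3 156 and 122 bases before it. In Gbp3 and Oas1a the capitals are 2 overlapping matches each, and the single match in Rsad2 begins 120 bases before the start. The element was present in the windows of 10 of 23 listed members with a promoter window (43.5%), namely Bst2, Cxcl10, Gbp2, Gbp3, Ifit1, Ifit3, Igtp, Oas1a, Rsad2 and Stat2. Over all 27025 genes with a window the share was 3.99%. A match describes the letters of the window and not a bound site.

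Ifit1, which binds viral RNA that lacks the host's cap methylation, had 9.08, 8.53 and 8.46 log2 signal in PCNB livers and 5.87, 5.38 and 5.39 in feed control livers. All PCNB arrays lay far above all controls, and the change was 2.99 ± 0.31, or 7.94-fold (adjusted p = 1.14e-05). Usp18, a protease that removes ISG15 and damps interferon signalling, had 8.14, 8.35 and 8.47 in PCNB livers and 6.15, 5.67 and 5.54 in feed control livers. Its groups did not overlap either, with a change of 2.38 ± 0.21, or 5.22-fold (adjusted p = 1.71e-06). Oas1a, an oligoadenylate synthetase that activates RNase L, had 8.78, 8.56 and 8.36 in PCNB livers against 6.61, 6.73 and 6.13 in feed control livers, a change of 1.93 ± 0.16, or 3.82-fold (adjusted p = 9.32e-07). The family members Oasl1 and Oasl2 changed by 1.96 ± 0.19 and 1.70 ± 0.26. Rsad2, the antiviral enzyme viperin, had 8.55, 8.84 and 8.42 in PCNB livers and 7.06, 6.86 and 6.40 in feed control livers, a change of 1.68 ± 0.21 (adjusted p = 3.46e-05).

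The interferon-induced GTPases, which attack vacuoles that hold intracellular pathogens, were higher as well. Gbp6 had 9.32, 9.42 and 8.86 in PCNB livers and 7.59, 7.00 and 6.44 in feed control livers, a change of 2.04 ± 0.29, or 4.12-fold (adjusted p = 0.000144). Gbp3 had 8.18, 8.28 and 8.25 in PCNB livers against 6.62, 6.26 and 6.08 in feed control livers, with little spread among PCNB animals and a change of 1.77 ± 0.15. Igtp changed by 1.24 ± 0.17, Gbp2 by 0.67 ± 0.14 and Iigp1 by 0.52, the last with an adjusted p of 0.0467 after quantile normalization. Rtp4, a chaperone of membrane receptors that interferon induces, had 9.36, 9.04 and 9.23 in PCNB livers and 7.56, 7.47 and 6.82 in feed control livers, a change of 1.78 ± 0.18, or 3.44-fold.

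Of the transcription factors of the pathway, Irf7, which amplifies type I interferon production, had 8.42, 8.94 and 8.85 in PCNB livers and 6.93, 6.96 and 6.58 in feed control livers. The groups stood apart, with a change of 1.77 ± 0.17, or 3.40-fold (adjusted p = 3.47e-06). Irf9, the DNA-binding partner of STAT2, had 7.65, 7.93 and 7.85 in PCNB livers against 7.11, 7.12 and 6.85 in feed control livers, a smaller change of 0.63 ± 0.14 (adjusted p = 0.00254). Stat2 did not pass: its values were 7.34, 7.18 and 7.18 in PCNB livers and 7.15, 6.63 and 6.41 in feed control livers, with feed control 27 close to the PCNB arrays, and its adjusted p was 0.104 (0.035 without feed control 27). Antigen processing genes moved less. Tap1, a peptide transporter, changed by 0.78 ± 0.12 (0.18 with the mean of its probe sets), and the immunoproteasome subunit Psmb8 by 0.57 ± 0.13.

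The other members that did not pass were Ifit2, Cxcl10, Cxcl9, Irf1 and Oas2. Cxcl10 and Cxcl9, chemokines that draw T cells, had changes of 0.26 and 0.19 with adjusted p = 0.0714 and 0.146. Oas2 had a change of -0.18 (adjusted p = 0.898). Ifi47, Psmb9 and Mx2, called on the deposited scale, had adjusted p = 0.0632, 0.081 and 0.0515 after quantile normalization. Ifi47, Iigp1 and Psmb9 lost their call without feed control 29 (adjusted p = 0.114, 0.0842 and 0.0642) and without PCNB animal 16 (0.0899, 0.0654 and 0.0585), and Ifi47 also without PCNB animal 18 (0.0526).

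The median of the same list, against the chemical's own control and relative to the median gene, was -0.48 for 1,5-naphthalenediamine, -0.09 for N-(1-naphthyl)ethylenediamine and -0.46 for 2,3-benzofuran. For corn oil gavage against feed control it was 0.23. PCNB and both other feed chemicals share the 3 feed control arrays, so the direct contrasts carry the test. PCNB livers were higher than 1,5-naphthalenediamine livers for 28 of the 29 members and lower for none, against 1.82% of all genes called higher. PCNB livers were higher than N-(1-naphthyl)ethylenediamine livers for 21 members and lower for none, against 1.63% of all genes. The doses differed (8187 against 2000 ppm). For Ifit1 the adjusted p of these contrasts was 4.63e-06 and 2.36e-05, and for Oas1a 8.88e-09 and 3.86e-07.

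**Figure D1:**
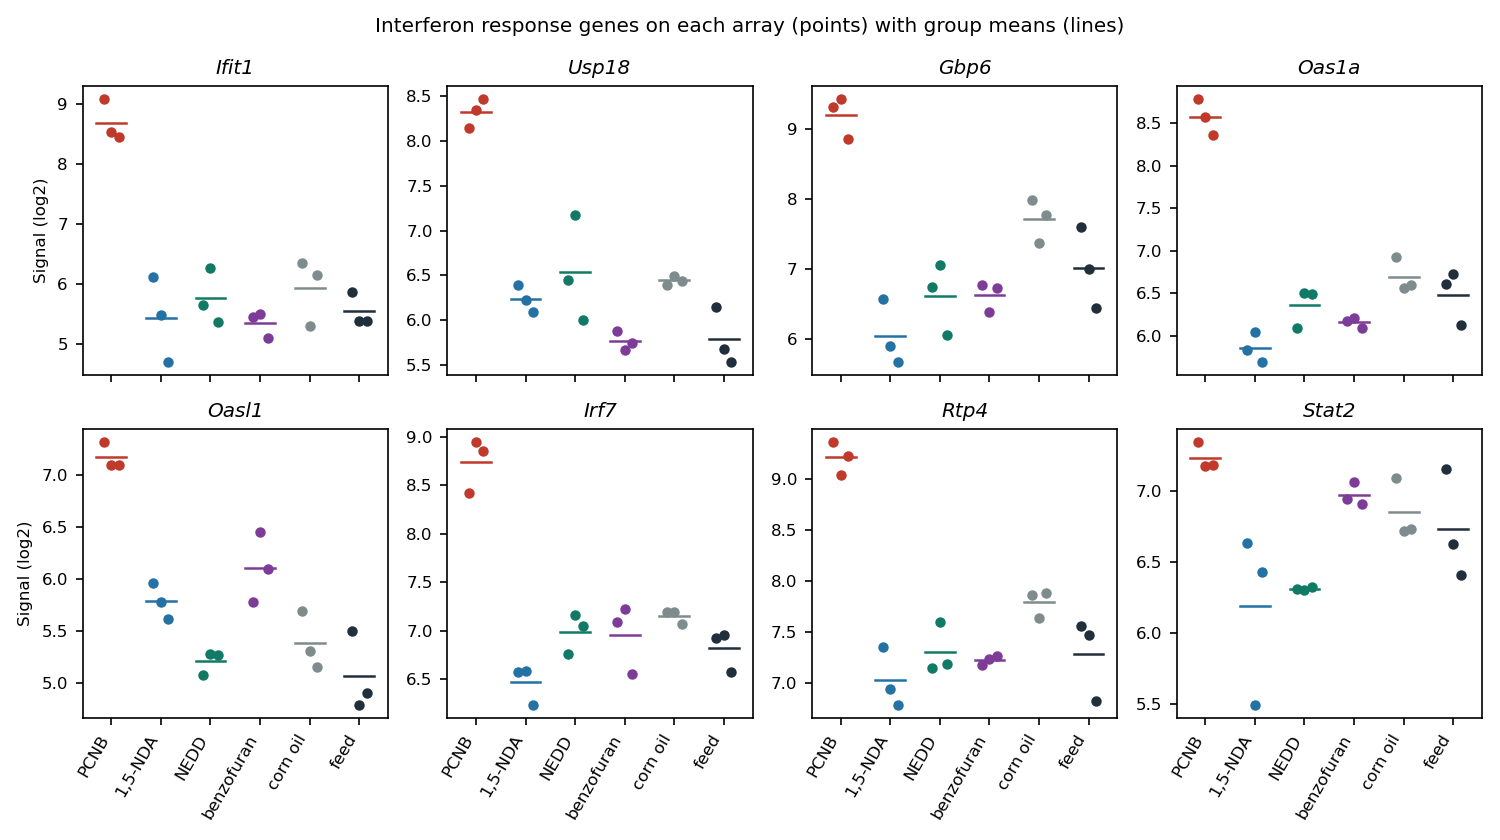
Log2 signal of 8 interferon response genes on each of the 18 arrays, with the groups from left to right PCNB, the other chemicals, corn oil control and feed control. Points are animals and short lines are group means. In Ifit1 the 3 PCNB animals lie between 8.46 and 9.08 and the feed controls between 5.38 and 5.87, while Stat2 shows PCNB and feed control values close together.

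Macrophages and lymphocytes also express interferon response genes, and their markers were read beside them. Of 19 tested macrophage and Kupffer cell markers 1 was called higher and none lower (14.6% and 3.87% of all genes). It was Mpeg1, a pore-forming protein of phagocytes, with 9.10, 9.12 and 9.43 in PCNB livers against 8.51, 8.87 and 8.26 in feed control livers, a change of 0.52 ± 0.13 (adjusted p = 0.00525). The mean of the macrophage markers ranged from 7.36 to 7.78 over the PCNB arrays and from 7.03 to 7.59 over the feed control arrays, and Itgam was not above background. Of 10 lymphocyte markers 1 was called higher on the deposited scale and none after quantile normalization (14.6% and 3.02% of all genes). Their mean ranged from 5.34 to 5.41 on PCNB arrays and from 5.24 to 5.36 on feed control arrays, while Cd3d, Cd3g, Cd79a and Ms4a1, which define T and B cells, were not above background. No neutrophil marker of 6 was called, with means of 4.64 to 5.05 on PCNB arrays and 4.68 to 5.05 on feed control arrays. Markers of these cells also moved with the direct contrasts. PCNB livers were called higher than 1,5-naphthalenediamine livers for 4 of the 19 macrophage markers (Clec4f, Csf1r, Ctss and Mpeg1, with differences of 0.58, 0.54, 0.86 and 0.95), for 6 after quantile normalization, and for 3 of the 10 lymphocyte markers, against 1.82% of all genes. The mean of the macrophage markers was 7.36 to 7.78 on PCNB arrays and 6.85 to 7.41 on 1,5-naphthalenediamine arrays, and that of the lymphocyte markers 5.34 to 5.41 on PCNB arrays and 5.11 to 5.19 on 1,5-naphthalenediamine arrays. Against N-(1-naphthyl)ethylenediamine no macrophage marker and 1 lymphocyte marker was called higher in PCNB livers (1.63% of all genes). On the N-(1-naphthyl)ethylenediamine arrays the means of the macrophage and lymphocyte markers were 7.31 to 7.57 and 5.13 to 5.22. The part of these cells in the interferon values was not tested. In whole liver, fewer cells of a type and less RNA per cell cannot be told apart.

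Genes of drug metabolism formed the next group. Of 26 tested CAR and PXR targets 14 were called higher and none lower (14.6% of all genes were called higher), and the median member changed by 0.32. The count was 11 after quantile normalization and 7 after centring. Cyp2b10, the P450 used as the standard readout of CAR in mice, had 9.92, 9.93 and 10.77 in PCNB livers and 8.82, 7.25 and 8.48 in feed control livers. The groups did not overlap although feed control 28 lay far below the other controls, and the change was 1.87 ± 0.37, or 3.67-fold (adjusted p = 0.00276). Its change was 1.63 with 1,5-naphthalenediamine and 1.08 with N-(1-naphthyl)ethylenediamine, both against the same feed controls, and the direct contrasts gave adjusted p = 0.855 and 0.273. A p that misses the threshold does not show that the chemicals act alike. Of the 26 targets, PCNB livers were higher than 1,5-naphthalenediamine livers for 7 and lower for 3 (1.82% and 2.2% of all genes). Against N-(1-naphthyl)ethylenediamine they were higher for 6 and lower for 1 (1.63% and 1.06% of all genes).

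The Cyp2c members and other CAR and PXR targets moved by less. Cyp2c55 had 7.12, 7.48 and 8.72 in PCNB livers and 6.50, 6.01 and 6.54 in feed control livers, a change of 1.27 ± 0.34 (adjusted p = 0.012), and of 0.80 without PCNB animal 20. Cyp2c29, a P450 that healthy liver makes at all times, had 13.15, 13.22 and 13.32 in PCNB livers against 12.79, 12.72 and 12.72 in feed control livers, which is a change of 0.34 ± 0.07 with tight groups (adjusted p = 0.000466). The aldehyde dehydrogenase Aldh1a7 changed by 0.67 ± 0.09, the epoxide hydrolase Ephx1 by 0.71 ± 0.15 and the carboxylesterase Ces2a by 0.47 ± 0.14. Nr1i3, which encodes CAR itself, had 9.46, 9.72 and 9.49 in PCNB livers and 9.04, 9.08 and 8.67 in feed control livers, a change of 0.48 ± 0.11 (adjusted p = 0.00203).

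The 3a family was split. Cyp3a16 had 8.21, 7.91 and 7.47 in PCNB livers and 7.03, 3.36 and 3.10 in feed control livers. Feed control 27 lay close to the PCNB animals, while feed controls 28 and 29 fell below the median of their arrays, so their signal was not shown to be above background. The change was 3.22 ± 0.76 (adjusted p = 0.00949). It was 2.58 with adjusted p = 0.063 without feed control 29, and without feed control 27 no control signal above background remains to give a value. Cyp3a11, the main PXR target among mouse P450s, had 13.48, 13.52 and 13.54 in PCNB livers against 13.44, 13.42 and 13.23 in feed control livers. It did not pass, at 0.00 ± 0.06 from the median gene (adjusted p = 0.0839), and its sign relative to that gene turned under 6 of the alternative settings. Cyp2b9 and Cyp2b13 did not pass either, with changes of -0.16 and -0.29.

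Among 8 tested aryl hydrocarbon receptor targets 3 were called higher and none lower (2 after quantile normalization), against 14.6% and 3.02% of all genes called higher. Cyp1a2, which activates aromatic amines, had 12.89, 13.00 and 13.06 in PCNB livers against 11.93, 11.80 and 12.20 in feed control livers. Its groups were well apart, with a change of 0.86 ± 0.13, or 1.81-fold (adjusted p = 9.87e-05). The same measure was 1.39 with 1,5-naphthalenediamine, 1.26 with N-(1-naphthyl)ethylenediamine and 0.01 with 2,3-benzofuran. Ahr, the receptor gene, changed by 0.65 ± 0.21 (adjusted p = 0.0189), a call that was lost without feed control 29 (0.108), PCNB animal 16 (0.087) or PCNB animal 18 (0.056), after quantile normalization (0.0733) or with the mean of its probe sets (0.0931).

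NRF2 targets were largely higher in PCNB livers: 17 of 26 were called higher and 1 lower, and the median member changed by 0.40. After quantile normalization 11 were called higher and 1 lower. The count fell to 11 higher without feed control 29. Of 20 glutathione S-transferases 11 were called higher and none lower (7 after quantile normalization), and of 12 genes of glucuronidation 8 and none (5 after quantile normalization, and 5 without PCNB animal 16 or without feed control 29). Across all genes 14.6% were called higher on the deposited scale and 3.02% after quantile normalization.

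The promoters of 3 NRF2 targets are shown, since Abcc4 and Ugdh were among the members that moved most and Txnrd1 encodes a central enzyme of the response. The letters are from RefSeq on GRCm38.p6, 60 bases each, 5′ to 3′ on the gene's strand, with capitals for TGACNNNGC or its reverse complement, searched on both strands.
Abcc4, chr14:118706220-118706279, minus strand: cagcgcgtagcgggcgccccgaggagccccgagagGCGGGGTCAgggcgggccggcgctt
Ugdh, chr5:65435922-65435981, minus strand: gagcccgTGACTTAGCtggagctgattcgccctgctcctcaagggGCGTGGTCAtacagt
Txnrd1, chr10:82859088-82859147, plus strand: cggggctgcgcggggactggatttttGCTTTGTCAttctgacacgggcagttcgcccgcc
These matches begin 25 bases before the start in Abcc4, 132 and 94 in Ugdh and 92 in Txnrd1. The element was in the windows of 8 of 22 NRF2 targets (36.4%), and in those of 14.0% of all genes. The matches do not show binding.

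Gstm3, a mu-class glutathione S-transferase that conjugates electrophiles, had 10.90, 11.22 and 11.90 in PCNB livers and 9.40, 9.08 and 9.61 in feed control livers. All PCNB animals were above all controls, with a change of 1.83 ± 0.26, or 3.55-fold (adjusted p = 0.000128). The same family's Gstm1 had 12.96, 13.11 and 13.25 in PCNB livers against 12.44, 12.15 and 12.32 in feed control livers, a change of 0.65 ± 0.10 (adjusted p = 7.43e-05). Gstm2 and Gstm4 changed by 0.60 ± 0.10 and 0.92 ± 0.20, and the pi-class Gstp1 by 0.58 ± 0.09. Against feed and corn oil controls pooled Gstm2 was no longer called (0.25, adjusted p = 0.131). The sequences of these genes are close, so their probe sets may share signal. The alpha-class Gsta2 had 9.60, 10.51 and 10.57 in PCNB livers and 9.46, 7.99 and 8.57 in feed control livers, with PCNB animal 16 near feed control 27, and a change of 1.40 ± 0.36 (adjusted p = 0.0103).

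Among redox enzymes, the aldehyde oxidase Aox1 had 9.54, 9.76 and 9.59 in PCNB livers and 8.54, 8.67 and 8.11 in feed control livers. Its groups did not overlap, with a change of 1.04 ± 0.13, or 2.05-fold (adjusted p = 2.11e-05). Nqo1, the quinone reductase most often read as an NRF2 target, had 6.95, 7.13 and 7.24 in PCNB livers and 6.43, 5.50 and 6.00 in feed control livers, a change of 0.98 ± 0.23 (adjusted p = 0.0056). Txnrd1, thioredoxin reductase, had 9.43, 9.54 and 9.44 in PCNB livers against 9.13, 8.90 and 8.61 in feed control livers, a change of 0.44 ± 0.11 (adjusted p = 0.00282). Its probe set with the highest variance gave 0.076 (adjusted p = 0.48), and the mean of its probe sets 0.28 (adjusted p = 0.055). Gclc, the catalytic subunit of the rate-limiting enzyme of glutathione synthesis, had 11.62, 11.92 and 11.36 in PCNB livers and 11.44, 11.50 and 11.02 in feed control livers, overlapping groups that did not pass (0.16 ± 0.20, adjusted p = 0.244). Gclm, the modifier subunit, and Srxn1, sulfiredoxin, changed by 0.36 and 0.66, but without feed control 29 their adjusted p was 0.174 and 0.077, and Gclm also lost its call without PCNB animal 16 (0.0992) or 18 (0.115). After quantile normalization their adjusted p was 0.162 and 0.0681. Gclm changed by 0.22 with the mean of its probe sets (adjusted p = 0.102). Srxn1 changed by 0.39 without probe sets of shared sequence (adjusted p = 0.0766). The member called lower was Gpx2, a glutathione peroxidase, with 5.44, 5.32 and 5.12 in PCNB livers and 5.76, 5.74 and 5.69 in feed control livers, a change of -0.58 ± 0.13 (adjusted p = 0.0301). Without PCNB animal 20 its adjusted p was 0.10, and the call was also lost without PCNB animal 18 (0.0691), feed control 27 (0.0532) or feed control 29 (0.077).

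Of the genes of conjugation and export, Ugdh, which makes the UDP-glucuronate used in glucuronidation, had 10.22, 10.31 and 10.55 in PCNB livers and 9.54, 9.35 and 9.28 in feed control livers, a change of 0.83 ± 0.14, or 1.77-fold (adjusted p = 0.000464). The glucuronosyltransferase Ugt2b35 had 11.17, 11.35 and 11.07 in PCNB livers and 10.40, 10.27 and 9.67 in feed control livers, a change of 0.93 ± 0.14 (adjusted p = 0.00018). Abcc4, an exporter of conjugates across the blood-facing membrane, had 5.77, 5.82 and 6.06 in PCNB livers and 4.03, 3.91 and 3.77 in feed control livers. The controls lay under the lowest array median of 4.25, so that Abcc4 was at least 2.80-fold higher in PCNB livers (adjusted p = 0.0004). Its relative Abcc3 changed by 0.64 ± 0.10. Of 14 hepatic ABC exporters 6 were called higher and none lower, but 2 after quantile normalization, 2 without feed control 29 and 3 without any 1 of the PCNB animals (14.6% of all genes, and 3.02% after quantile normalization). Of 20 carbonyl, quinone and nitro reductases 7 were called higher and none lower, but 2 after quantile normalization and 3 without PCNB animal 16 or without feed control 29. Of 10 sulfotransferases 4 were called higher and none lower, but none after quantile normalization, and with any 1 array other than feed control 27 left out 0 to 2 were called. Of 14 enzymes of thiol methylation and mercapturate formation 3 were called higher and 2 lower, and after quantile normalization none higher and 2 lower. With single arrays left out 0 (PCNB animal 16 or feed control 29) to 5 (feed control 27) of these enzymes were called higher.

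Set directly against 1,5-naphthalenediamine, PCNB livers were lower for 14 of the 26 NRF2 targets and higher for none, against 2.2% of all genes called lower. Against N-(1-naphthyl)ethylenediamine they were higher for 7 and lower for none (1.63% of all genes were called higher). Aox1 shows the order: its change was 1.04 with PCNB, 1.99 with 1,5-naphthalenediamine and -0.16 with N-(1-naphthyl)ethylenediamine, and the direct contrasts had adjusted p = 0.000118 and 2.36e-05. For Ugdh the changes were 0.83, 2.19 and 0.08 in that order, and the contrasts had adjusted p = 8.7e-06 and 0.0075. With 2,3-benzofuran, given by another route and set against corn oil, Aox1 changed by 2.75 and Ugdh by 2.17. The 8187 ppm of PCNB and the 2000 ppm of the naphthalene chemicals are not matched doses.

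**Figure D2:**
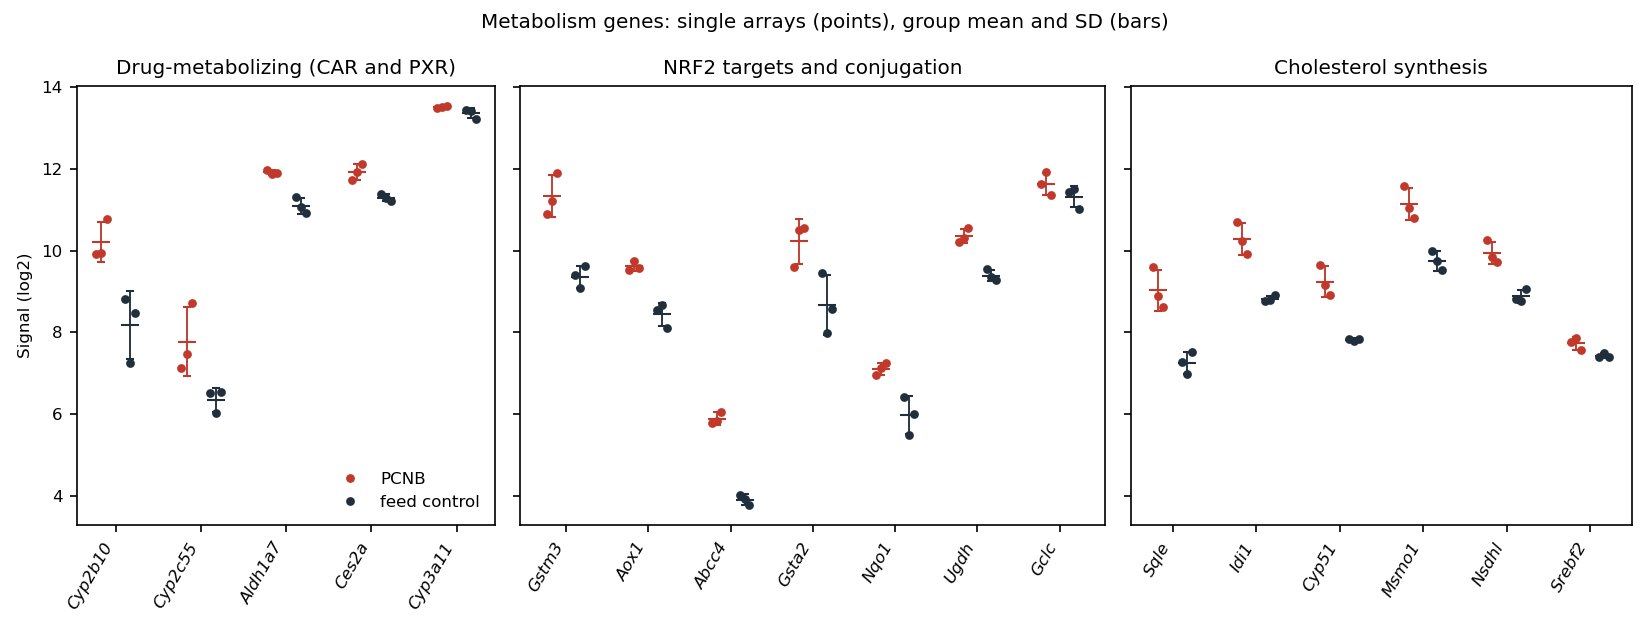
Log2 signal on each of the 6 arrays for genes of drug metabolism, NRF2 and conjugation, and cholesterol synthesis, with PCNB left of feed control. Points are animals, and bars are the mean and SD of 3. PCNB animals of Gstm3 lie between 10.90 and 11.90 and feed controls between 9.08 and 9.61, and PCNB animal 16 is highest in most of the cholesterol genes.

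Enzymes of cholesterol synthesis were higher in PCNB livers at most steps of the pathway. Of 20 tested members 16 were called higher and none lower (14.6% of all genes were called higher), and the median member changed by 0.68. After quantile normalization 10 were called higher and after centring 12, against 3.02% and 2.56% of all genes. In 18 of 20 the PCNB arrays lay above all feed controls, against 29.2% of all genes. Sqle, squalene epoxidase, had 9.59, 8.89 and 8.62 in PCNB livers and 7.27, 6.99 and 7.51 in feed control livers. The groups were more than 1 log2 unit apart, with a change of 1.63 ± 0.22, or 3.09-fold (adjusted p = 7.44e-05). Idi1, which isomerises the isoprene unit, had 10.71, 10.25 and 9.93 in PCNB livers and 8.77, 8.79 and 8.91 in feed control livers, a change of 1.33 ± 0.19, or 2.51-fold (adjusted p = 0.000124).

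In the later steps Cyp51, the lanosterol demethylase, had 9.65, 9.16 and 8.91 in PCNB livers and 7.84, 7.78 and 7.85 in feed control livers. The controls were nearly equal and the change was 1.27 ± 0.16, or 2.41-fold (adjusted p = 2.45e-05). Msmo1, which oxidises the methyl groups of sterol intermediates, had 11.58, 11.04 and 10.81 in PCNB livers and 9.99, 9.73 and 9.51 in feed control livers, a change of 1.25 ± 0.23. Without probe sets of shared sequence Msmo1 changed by 0.60. Fdft1, Nsdhl and Dhcr7 changed by 1.05 ± 0.21 (0.26 with the mean of its probe sets), 0.91 ± 0.12 and 0.88 ± 0.18, and Hmgcs1 and Fdps by 0.84 ± 0.24 and 0.69 ± 0.16. Lss and Insig1 were called on the deposited scale but had adjusted p = 0.0792 and 0.174 after quantile normalization. The change of Lss was 0.67, against 1.33 with its highest-variance probe set (adjusted p = 0.00387). Without probe sets of shared sequence Lss changed by 1.34 (adjusted p = 0.0032). Mvd, the mevalonate decarboxylase, did not pass, with 8.35, 6.89 and 6.48 in PCNB livers against 6.44, 6.32 and 6.01 in feed control livers and PCNB animal 16 far above the rest (0.84 ± 0.37, adjusted p = 0.0672). Srebf2, the gene of the transcription factor SREBP2, did not pass either, with 7.77, 7.87 and 7.56 in PCNB livers against 7.40, 7.50 and 7.40 in feed control livers (0.16 ± 0.12, adjusted p = 0.0705). Its call depends on the probe set. Srebf2 was called higher with its highest-variance probe set (0.73, adjusted p = 0.00463) and with the mean of its probe sets (0.46, adjusted p = 0.00456). PCNB animal 16 was the highest in Sqle, Idi1, Cyp51, Msmo1, Fdft1 and Nsdhl, and without it 10 of the 20 were called higher. Hmgcs1, Lss and Insig1 lost their call without that animal (adjusted p = 0.068, 0.0579 and 0.151). Without feed control 29 the adjusted p of Hmgcs1 was 0.0646 and that of Insig1 0.175, and without PCNB animal 18 that of Insig1 was 0.0569.

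The level of these genes also differed between the control groups. Corn oil control livers were called higher than feed control livers for 5 of the 20, with a median change of 0.66, against 0.123% of all genes. Against feed and corn oil controls pooled, 8 of the 20 were called higher in PCNB livers (12.3% of all genes). With the pooled controls Sqle changed by 1.07, Cyp51 by 0.84, Fdft1 by 0.66 and Nsdhl by 0.53, while Dhcr7, Lss and Fdps were no longer called (adjusted p = 0.0664, 0.121 and 0.252). Sqle changed by 1.25 with 1,5-naphthalenediamine and by -0.13 with N-(1-naphthyl)ethylenediamine, against the same feed controls. The direct contrast of PCNB with 1,5-naphthalenediamine called none of the 20 (1.82% of all genes were called higher and 2.2% lower). In the contrast with N-(1-naphthyl)ethylenediamine 10 of the 20 were called higher in PCNB livers, against 1.63% of all genes. A sterol regulatory element of the form TCACNCCAC was in the window of 1 of 16 listed genes with a promoter window, Hmgcs1, and in 1.44% of all genes. Of 20 genes of fatty acid synthesis none was called in either direction, against 18.5% of all genes.

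**Figure D3:**
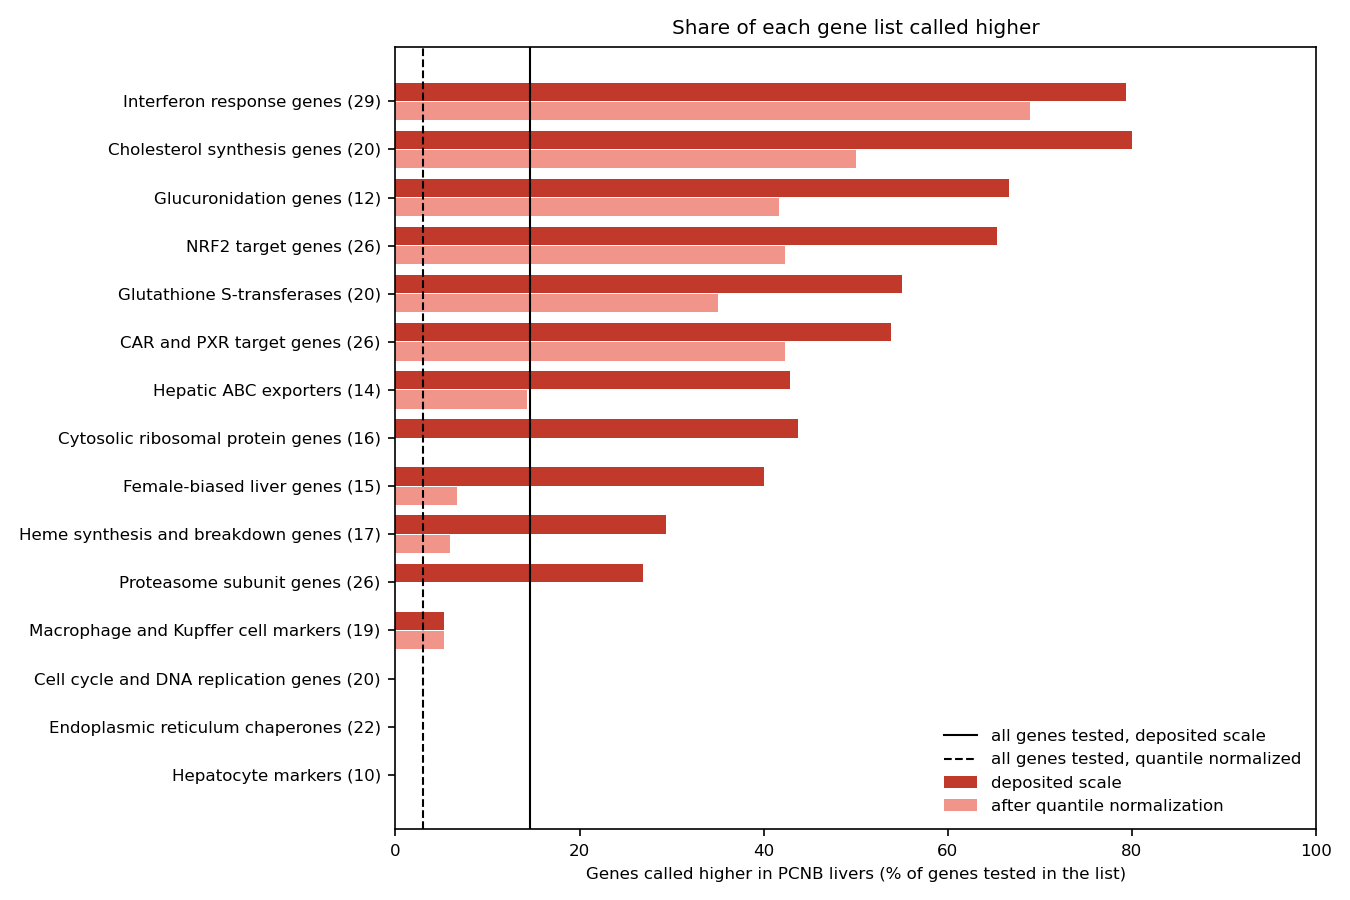
Percentage of each gene list called higher in PCNB than in feed control livers, on the deposited scale (dark bars) and after quantile normalization (light bars), for 15 lists. Vertical lines mark all 12169 genes, solid at 14.6% and dashed at 3.02%. The interferon and cholesterol bars lie far beyond both lines, while the ribosomal and proteasome bars vanish after quantile normalization.

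Single genes of lipid and bile acid metabolism were also called. Cd36, a fatty acid transporter, had 8.38, 8.91 and 8.66 in PCNB livers and 7.57, 6.49 and 6.07 in feed control livers, a change of 1.80 ± 0.31, or 3.47-fold (adjusted p = 0.000892). Cyp7a1, the rate-limiting enzyme of bile acid synthesis, had 9.71, 7.92 and 7.79 in PCNB livers and 7.71, 5.69 and 6.54 in feed control livers. PCNB animal 16 stood out, and the change of 1.68 ± 0.54 (adjusted p = 0.029) was 1.06 with adjusted p = 0.143 without it. The call was also lost without feed control 28 (0.087) or feed control 29 (0.104). Of 20 bile acid genes 6 were called higher, 1 after quantile normalization, and none without PCNB animal 16 or without feed control 29. Over all genes 14.6% were called higher, and 3.02% after quantile normalization. The uncharacterised 9130409I23Rik had 7.38, 8.05 and 8.08 in PCNB livers and 5.58, 5.32 and 4.91 in feed control livers, a change of 2.42 ± 0.25, or 5.35-fold (adjusted p = 1.07e-05). It changed by 3.41 with 1,5-naphthalenediamine and 1.13 with N-(1-naphthyl)ethylenediamine, and the direct contrasts with PCNB had adjusted p = 0.0273 and 0.00907.

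Genes that differ between male and female mouse liver were called in both directions. The median female-biased gene changed by 0.44 and the median male-biased gene by -0.32. For corn oil gavage against feed control these medians were 0.62 and -0.25. The counts below stand against 14.6% of all genes called higher and 3.87% lower (3.02% and 4.32% after quantile normalization). Of 15 female-biased genes 6 were called higher and 1 lower, but 1 and 1 after quantile normalization, and 1 higher when PCNB animal 16, feed control 28 or feed control 29 was left out. Sult2a2, a steroid sulfotransferase, had 10.87, 11.76 and 11.32 in PCNB livers and 10.31, 7.28 and 7.90 in feed control livers, with feed control 27 near the PCNB animals and a change of 2.68 ± 0.85 (adjusted p = 0.031). It kept its call with feed control 27 left out, but leaving out any other 1 of the 6 arrays gave an adjusted p of 0.0619 (PCNB animal 20) to 0.132 (feed control 29). Cux2, a female-specific repressor in mouse liver, had a change of -0.61 ± 0.13, but its probe set with the highest variance gave 1.19 and the mean of its probe sets 0.31, so its direction depends on the probe set. Its adjusted p was 0.0838 without PCNB animal 16, 0.0806 without PCNB animal 18, 0.0523 without feed control 27 and 0.0634 without feed control 28. Of 16 male-biased genes 3 were called higher and 2 lower. Hsd3b5, a male-biased steroid enzyme, had 5.62, 4.25 and 3.64 in PCNB livers and 6.12, 7.11 and 5.08 in feed control livers, overlapping groups with a change of -1.75 ± 0.44 (adjusted p = 0.0228). Its adjusted p was 0.0872 without PCNB animal 20, 0.0737 without PCNB animal 18 and 0.074 without feed control 28.

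Fewer genes were called lower than higher on the deposited scale, and 8.99% of all genes had every PCNB array below every feed control. Slco1a1, which takes organic anions up into the hepatocyte, had 8.09, 6.65 and 6.73 in PCNB livers and 9.08, 9.19 and 8.70 in feed control livers. All PCNB animals lay below all controls, PCNB animal 16 the least, with a change of -1.98 ± 0.59 (adjusted p = 0.04). The call was lost without PCNB animal 18 (0.123), PCNB animal 20 (0.103), feed control 27 (0.0678), feed control 28 (0.073) or feed control 29 (0.098), all adjusted p. Its change was -4.29 with 1,5-naphthalenediamine and -3.15 with N-(1-naphthyl)ethylenediamine, and the direct contrasts had adjusted p = 0.0342 and 0.319. It was the only one of 10 uptake transporters called, against 18.5% of all genes called in either direction.

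Of the 12 largest falls, 9 had their highest signal on feed control array 29: Csdc2, Pik3cd, Aif1l, Dennd6b, Igfbp5, E2f5, Syp, Cacng7 and Ccdc22. Pik3cd, a catalytic subunit of phosphoinositide 3-kinase of leukocytes, had 8.16, 7.97 and 8.00 in PCNB livers and 8.94, 9.16 and 10.55 in feed control livers, a change of -1.66 ± 0.30 (adjusted p = 0.00463). The change was -1.10 without feed control 29, and its other probe set gave -0.15. Igfbp5, a binding protein of insulin-like growth factors, had 5.85, 5.71 and 6.02 in PCNB livers and 6.45, 6.46 and 8.28 in feed control livers. Its change of -1.35 ± 0.32 (adjusted p = 0.0189) was -0.68 without feed control 29, and it lost its call without PCNB animal 16 (adjusted p = 0.0591) or PCNB animal 18 (0.0615). The other probe set of Igfbp5 gave 0.0038, and the call was also lost with the mean of its probe sets. E2f5, a repressor of the E2F family, had a change of -1.25 ± 0.28 (adjusted p = 0.0177) that was -0.64 without feed control 29. Its adjusted p was 0.0506 without PCNB animal 16 and 0.0511 without PCNB animal 18, and its other probe sets gave 0.22 and 0.37. Aif1l, Syp and Cacng7 changed by -1.55, -1.22 and -1.19, and without feed control 29 by -0.91, -0.70 and -0.69 with adjusted p = 0.0928, 0.0653 and 0.0517. Without PCNB animal 18 the adjusted p of Aif1l was 0.0555 and that of Syp 0.0545. The other probe set of Aif1l gave -0.084 and that of Syp -0.98.

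Pik3cd, Zfp3, Csdc2, Dennd6b, Ccdc22 and Ccne1 kept their call with any 1 of the 6 arrays left out. Of these, Zfp3, Csdc2, Dennd6b and Ccdc22 were read through probe sets of shared sequence. Zfp3, a zinc finger protein, had 4.44, 4.60 and 4.89 in PCNB livers and 6.23, 6.23 and 5.52 in feed control livers, a change of -1.49 ± 0.19 (adjusted p = 0.000243). Ccne1, the cyclin of entry into DNA synthesis, had 5.30, 5.08 and 5.32 in PCNB livers and 6.12, 5.77 and 6.21 in feed control livers, a change of -0.95 ± 0.12 (adjusted p = 0.000779). It was the only call among 20 cell cycle genes, against 18.5% of all genes called in either direction. Csdc2, an RNA-binding protein with a cold shock domain, had 5.85, 5.80 and 5.98 in PCNB livers and 7.44, 6.99 and 8.42 in feed control livers, a change of -1.89 ± 0.25 (adjusted p = 0.000282). When probe sets of shared sequence were set aside, its remaining probe set gave -0.44 (adjusted p = 0.219). Dennd6b and Ccdc22 changed by -1.48 ± 0.24 and -1.19 ± 0.19, and by -0.74 and -0.59 with the mean of their probe sets. The other probe set of Dennd6b gave -0.035 and that of Ccdc22 -0.016.

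**Figure D4:**
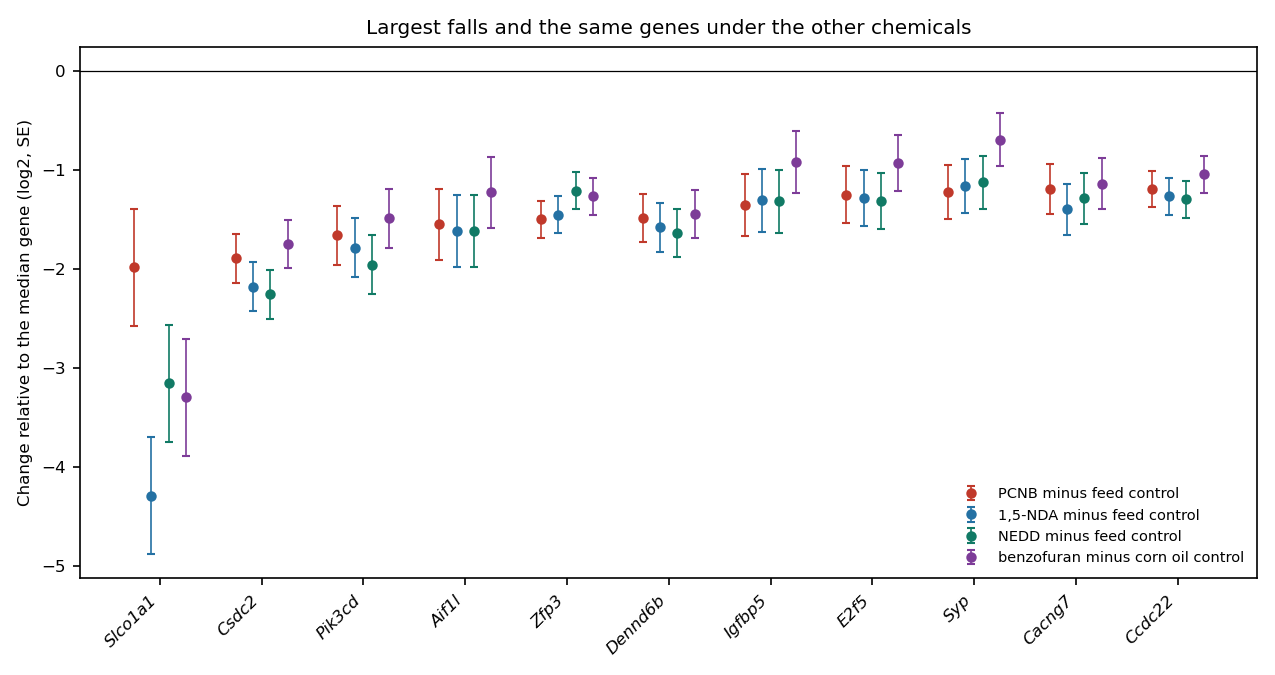
Change of 11 of the 12 largest falls of the PCNB comparison under all 4 chemicals, each set against its control group, in log2 units relative to the median gene, with standard errors. PCNB and both naphthalene chemicals share the 3 feed control arrays. Slco1a1 stands at -1.98 for PCNB, -4.29 for 1,5-naphthalenediamine, -3.15 for N-(1-naphthyl)ethylenediamine and -3.29 for 2,3-benzofuran.

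The same genes were read under the other chemicals. Pik3cd changed by -1.78 with 1,5-naphthalenediamine and -1.95 with N-(1-naphthyl)ethylenediamine, and Csdc2 by -2.18 and -2.25, all against the same 3 control arrays. With 2,3-benzofuran against corn oil, a comparison that uses other controls, they changed by -1.49 and -1.75. Between PCNB and 1,5-naphthalenediamine livers 1 of the 12 genes was called, Slco1a1, and between PCNB and N-(1-naphthyl)ethylenediamine livers none. Of all genes 1.82% were called higher and 2.2% lower in the first contrast, and 1.63% and 1.06% in the second. With shares this low, these counts do not show that the falls are alike.

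In the lists that follow, counts stand against 14.6% of all genes called higher and 3.87% lower on the deposited scale, and 3.02% and 4.32% after quantile normalization. Of 20 p53 targets 3 were called higher and none lower, and 1 higher after quantile normalization, a share near that of all genes. Of 22 endoplasmic reticulum chaperones none was called, with a median of -0.22. Of 29 PPAR-alpha targets 1 was called higher and 1 lower, of 25 acute phase genes 2 higher and none lower, and of 32 complement and coagulation genes 1 higher and none lower. Sets of ribosomal protein (7 of 16), proteasome (7 of 26) and respiratory chain genes (6 of 24) were called higher on the deposited scale, and none of them after quantile normalization. With single arrays left out these counts ran from 0 to 12, 0 to 14 and 0 to 8. The 10 hepatocyte markers had no call, and their mean lay between 13.3 and 13.4 on PCNB arrays and between 13.2 and 13.3 on feed control arrays. Of 15 sinusoidal endothelial markers 1 was called higher, and of 17 stellate cell and matrix markers 3. After quantile normalization none of these was called higher, and 2 endothelial markers were called lower. The RNA integrity numbers were 8.8, 8.4 and 8.4 for PCNB animals and 8.8, 8.8 and 9.1 for feed controls. With that number as a covariate 1502 genes were called between PCNB and feed control livers, and Slco1a1 was no longer called (adjusted p = 0.0813).

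**Figure D5:**
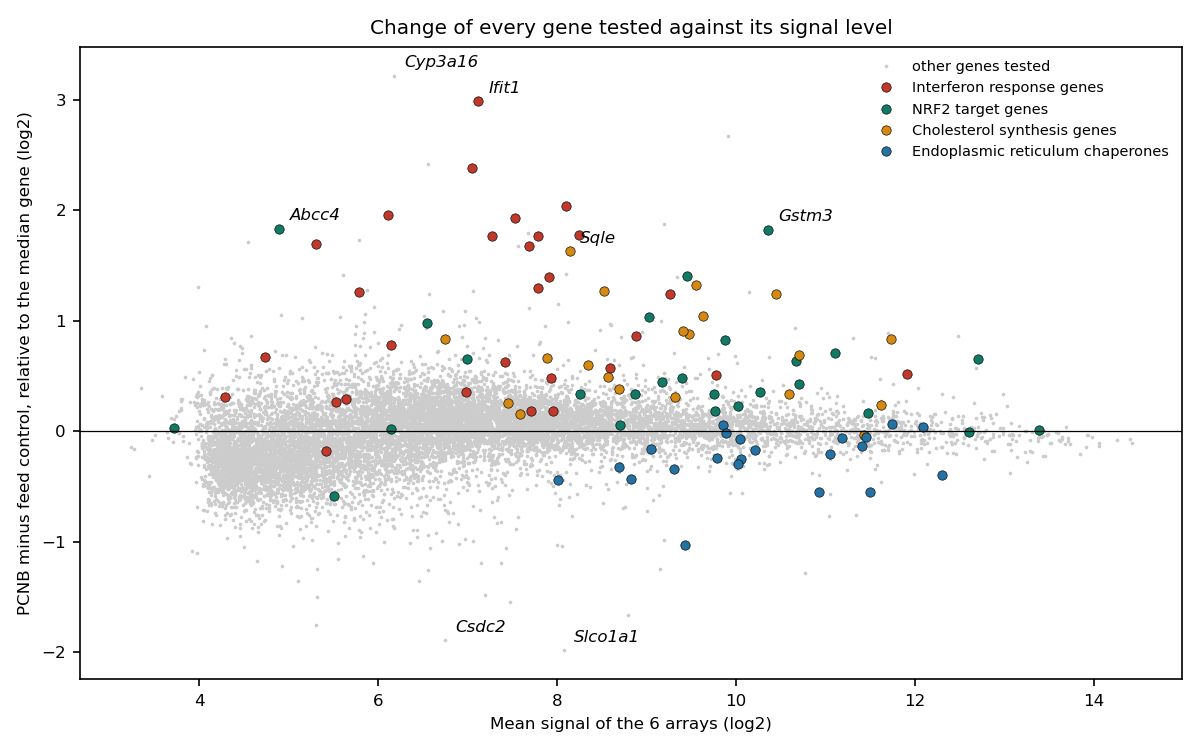
Change of each tested gene, PCNB minus feed control relative to the median gene in log2 units, against its mean log2 signal on the 6 arrays. Coloured points are the members of the interferon, NRF2, cholesterol synthesis and chaperone lists, and grey points are all other genes. Interferon members reach 2.99 (Ifit1) and cholesterol members 1.63 (Sqle), while the chaperones centre on -0.22.

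Over all genes, the direct contrasts on the deposited scale called 490 genes between PCNB and 1,5-naphthalenediamine livers (222 higher and 268 lower in PCNB) and 327 between PCNB and N-(1-naphthyl)ethylenediamine livers (198 higher and 129 lower). Serpina12, which encodes the adipokine vaspin, averaged 9.22 ± 0.84 in PCNB livers, 8.21 ± 0.36 in feed control livers and 5.92 ± 0.58 in 1,5-naphthalenediamine livers (SD, n = 3 each). The difference between PCNB and 1,5-naphthalenediamine livers was 3.30 ± 0.38 (limma adjusted p = 2.57e-05). Cyp1a1, the P450 most tightly driven by the aryl hydrocarbon receptor, was not above background in PCNB or feed control livers (means of 3.87 and 3.76) and averaged 6.99 with 1,5-naphthalenediamine, so that it was at least 6.66-fold lower in PCNB than in 1,5-naphthalenediamine livers (limma adjusted p = 2.93e-06). Against N-(1-naphthyl)ethylenediamine the largest difference downward was that of Ppp1r3g, a glycogen-targeting subunit of protein phosphatase 1. Ppp1r3g averaged 5.74 in PCNB livers, 6.13 in feed control livers and 9.77 in N-(1-naphthyl)ethylenediamine livers. PCNB minus N-(1-naphthyl)ethylenediamine was -4.02 ± 0.67 (limma adjusted p = 0.00207). Clock genes differed along with this contrast. The mean of Arntl, Npas2 and Clock minus that of Dbp, Per3 and Nr1d2 was 1.59, 1.41 and -1.88 in PCNB livers and -3.01, -3.39 and -3.34 in N-(1-naphthyl)ethylenediamine livers. With that difference as a covariate 63 genes were called, and the part of the hour of sacrifice was not tested.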

How the data were processed

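Total liver RNA of single mice was hybridized to Affymetrix whole-genome mouse arrays. The values used are the deposited log2 signals that the authors made; how they corrected background, normalized and summarised probes is not given in the sources used here. Of 45101 probe sets, those annotated to a single gene and brighter than their array's median on 3 or more of the 18 arrays were retained, and the brightest on average represented each gene. Means of 6 groups were fitted with limma 3.58.1 (R 4.3.3; trended eBayes, 12 residual degrees of freedom). PCNB was contrasted with feed control, 1,5-naphthalenediamine and N-(1-naphthyl)ethylenediamine, with Benjamini-Hochberg adjustment at 0.05. The fit was tested on simulated data. The simulated arrays held no shift between whole arrays, so that test does not bear on the choice of scale. Group means under the lowest array median, 4.25, were taken as not above background.

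Named are the 12 largest rises and falls called on both scales without overlap, members of 48 lists (745 tested genes), and the 5 largest direct differences each way. The members and lists were chosen with earlier results of these data known. Alternatives were quantile normalization, centring, filters, probe set choice, moderation, weights, covariates, threshold, pooled controls and left-out arrays. The number of arrays limits precision. A result among the falls is not reported here. No deposited column was left unused (0).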

Additional observations from a re-analysis of the deposited data

Results flagged for a closer look

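These are the largest direct differences between PCNB and another feed chemical, given because the direct contrast tests whether 2 effects against the shared feed controls differ. Values are log2 differences on the deposited scale with standard errors and limma adjusted p, and the doses were 8187 ppm for PCNB and 2000 ppm for the others.

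Higher in PCNB than in 1,5-naphthalenediamine livers were Cyp3a16 with a measured difference of 4.32 ± 0.76 (adjusted p = 0.00208), Serpina12 by 3.30 ± 0.38 (2.57e-05), Ifit1 by 3.25 (4.63e-06), Gbp6 by 3.15 (2.16e-06) and Gprin3 by 2.72 ± 0.53 (0.00531). Cyp3a16 averaged 3.55 in 1,5-naphthalenediamine livers, not above background, so that it was at least 12.2-fold higher in PCNB livers. Gprin3 averaged 7.49 in PCNB livers, 4.77 in 1,5-naphthalenediamine livers and 7.68 in feed control livers.

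Lower in PCNB than in 1,5-naphthalenediamine livers were Cyp1a1 with a difference of -3.12 ± 0.29 (adjusted p = 2.93e-06), Snhg11 with -2.92 ± 0.31 (1.22e-05), Lpl with -2.36 ± 0.31 (0.000118), Lrrc24 with -2.06 ± 0.34 (0.00135) and Abcc4 with -2.01 ± 0.29 (0.000296). Cyp1a1 and Snhg11 were not above background in PCNB livers, so that they were at least 6.66-fold and 7.55-fold lower there than in 1,5-naphthalenediamine livers. Lpl, lipoprotein lipase, averaged 7.30 in PCNB livers, 9.66 in 1,5-naphthalenediamine livers and 7.10 in feed control livers.

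Higher in PCNB than in N-(1-naphthyl)ethylenediamine livers were Cyp3a16 with a measured difference of 4.96 ± 0.76 (adjusted p = 0.00095), Serpina12 by 3.95 (6e-06), Ifit1 by 2.92 (2.36e-05), Gbp6 by 2.58 (3.19e-05) and Gprin3 by 2.30 (0.0245). Cyp3a16 averaged 2.91 in N-(1-naphthyl)ethylenediamine livers, not above background, so that it was at least 12.2-fold higher in PCNB livers. Lower were Ppp1r3g with -4.02 ± 0.67 (0.00207), Rgs16 with -2.86 ± 0.70 (0.0335), Vldlr with -2.59 ± 0.42 (0.00155), Gadd45g with -2.05 ± 0.47 (0.024) and Serpina7 with -1.93 ± 0.39 (0.011). Gprin3, Rgs16, Gadd45g and Serpina7 lost their call when 1 array was left out, with adjusted p up to 0.108, 0.178, 0.133 and 0.0787. The N-(1-naphthyl)ethylenediamine animals had RNA integrity numbers of 7.7, 8.1 and 7.7, and 2 of their arrays had an 18S ribosomal RNA signal of 10.3 and 11.6, against 6.19 to 6.28 on PCNB arrays. The part of these in the differences was not tested for single genes.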

How the results depend on the processing

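For PCNB against feed control, 2249 genes were called. The count was 893 after quantile normalization (367 higher, 526 lower), 400 with the 6 arrays alone and 435 at an adjusted p of 0.01, and it ranged from 656 to 2505 with single arrays left out. For PCNB against 1,5-naphthalenediamine the 490 calls became 843 with array weights and 207 at 0.01. Without the 5 arrays of high 18S signal, which include 1,5-naphthalenediamine animal 4, they became 183. With single arrays left out they ran from 241 to 521 (241 without 1,5-naphthalenediamine animal 5, 245 without animal 4, 257 without PCNB animal 16). For PCNB against N-(1-naphthyl)ethylenediamine the 327 calls became 503 after quantile normalization, 525 with the highest-variance probe set, 496 with both groups alone, 791 with array weights, 114 with RNA integrity, 69 with the actin ratio and 63 with the clock difference as covariate, 110 at 0.01 and 62 without the high-18S arrays. They ranged from 138 (without PCNB animal 16) to 224 with single arrays left out, with 170, 183 and 209 without N-(1-naphthyl)ethylenediamine animals 15, 12 and 14. Fewer arrays enter the smaller fits, and for the other settings the cause was not tested.

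Of 115 genes followed, 101 were called and 50 of these kept their call under every setting run. Reversed relative to the median gene were Cyp3a11, at -0.022 with the filter on all 18 arrays, -0.0050 with the highest-variance probe set, -0.0041 with array weights and -0.0099 to 0.019 with single arrays left out (-0.0099 without PCNB animal 20, -0.0015 without feed control 28, -0.0031 without feed control 29), and Cux2, at 1.19 with its highest-variance probe set and 0.31 with the mean of its probe sets. With the 6 arrays alone Aif1l, Cacng7, E2f5, Igfbp5, Syp, Hsd3b5 and Cyp7a1 lost their call (adjusted p = 0.0683, 0.0738, 0.0936, 0.0977, 0.081, 0.0959 and 0.0792). These were not the only ones. Among the rises, Cyp3a16, Cyp2c55, Mpeg1, Txnrd1, Lss and Ahr lost it too (adjusted p = 0.0529, 0.0512, 0.0567, 0.0528, 0.0539 and 0.0523). So did further genes, among them Ifi47, Iigp1, Mx2, Gclm, Gpx2 and Cux2. Signal over background limits dim probe sets. No paired analysis was possible because the animal numbers are not shared between groups.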
